A study of Mus musculus with 4 samples.

Results

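The 36 genes described here encode receptor chains for cytokines and growth factors, and they were taken by symbol from the 32227 genes of each count matrix. The cells were bone marrow stem and progenitor cells of wild-type mice. E0771 cells, from a breast cancer of the mouse, had been injected into all mice 3 days before surgery, and the surgery was either a sham operation or ligation of the femoral artery, which makes the leg ischaemic. Marrow was taken 9 days after surgery and sorted for cells lacking lineage markers and carrying cKit, with or without Sca1. All replicates thus share the tumour, so no tumour-free marrow enters any value, and Kit, the gene of cKit, was part of the sort. Strain and age are not given in the sources used here. A replicate may be a single mouse or several, since no source tells, and p-values therefore cover only the spread between these replicates. There were 4 sham and 4 surgery replicates, each marked by a hashtag (an oligonucleotide label on its cells), in 2 captures that each held 2 replicates of either group and are called batch 1 and batch 2. The treatment label names one whole capture ligation and the other sham, against its own hashtag names and the design text, so groups were taken from the hashtag names. In batch 2 the feature table lists the surgery hashtags first, so the groups of that capture would trade places if its names were wrong.

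A cytokine receptor chain mostly has no enzyme of its own: the ligand joins 2 or more chains, and Janus kinases bound to their tails then phosphorylate STAT factors. Many receptors pair a private chain that binds the ligand with a shared chain that signals, such as gp130 for the IL-6 family, the common beta chain for GM-CSF and IL-3, or the common gamma chain for IL-4 and IL-21. A cell builds the whole receptor by itself only when it makes every chain, although a chain can also be supplied in soluble form or by a neighbouring cell, as is known for IL-6 and IL-15. Kit, Flt3 and the receptors of insulin and IGF-1 are tyrosine kinases, while TGF-beta receptors are serine/threonine kinases that act through SMAD factors. In marrow these receptors decide which progenitor answers the factors that drive granulocyte, monocyte, mast cell, platelet and lymphoid output.

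A total of 26942 cells carried exactly 1 hashtag at 200 counts or more, between 1883 and 5889 per replicate, with medians of 5861 to 7191 UMIs (unique molecule counts) per cell in batch 1 and 10291 to 12406 in batch 2. Cells were placed in types by fixed marker lists that hold none of the 36 genes, and names stand for cells like that type. The 8 types with at least 20 cells in every replicate were HSC and early multipotent progenitors (2035 cells), lymphoid-primed progenitors (551), neutrophil-granulocyte progenitors (6825), monocyte progenitors (2671), erythroid progenitors (2319), megakaryocyte progenitors (488), basophil-mast progenitors (1117) and early B cells (2389). Receptors used neither in the gates nor among the 36 genes served as a check: Epor, the erythropoietin receptor, averaged 90.1 ± 7.28 CPM in erythroid progenitors, and Csf1r, the receptor of the macrophage factor, 101 ± 4.61 CPM in monocyte progenitors; here and below ± is the SD over the 8 replicates of a type. CPM are UMIs of a gene per 1000000 UMIs of that replicate and type. In neutrophil-granulocyte progenitors, which should lack it, Epor averaged 0.411 CPM. No such value is given for Csf1r. In the monocyte sums the neutrophil-granulocyte markers reached 10091 to 11320 CPM and the monocyte markers 4718 to 5321 CPM, so the Csf1r level is a weaker check of that gate. Levels are compared between types for one gene and not between genes, except that the held rule below sets the same minimum of 10 CPM for every gene. Differences between genes in how well the assay captures them were not corrected for in those calls. A further 7231 cells (26.8%) passed no gate.

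Each receptor chain was called held in a type where it reached 10 CPM in all 8 replicates, sham and surgery alike, and a receptor was called held where all its chains were. Of 288 gene and type pairs, 139 were held, and of 200 pairs of a factor and a type, 63. Monocyte progenitors held 21 of the 36 genes, HSC and early multipotent progenitors 22, lymphoid-primed and neutrophil-granulocyte progenitors 20 each, and basophil-mast progenitors 18. Megakaryocyte progenitors and early B cells held 15 each and erythroid progenitors 8. Of the 25 factors scored, HSC and early multipotent, lymphoid-primed and monocyte progenitors held the receptors of 11 each, and erythroid progenitors those of 3, namely stem cell factor, insulin and IGF-1. The smallest replicate total was 178497 UMIs, in lymphoid-primed progenitors, where 1 UMI is worth 5.60 CPM, against 7576382 UMIs in neutrophil-granulocyte progenitors; a held call in the former rests on as few as 2 UMIs. These levels are a description, and no test was made between types. A held receptor means only that the RNA of every chain reached the minimum in the summed cells of a type. Whether a single cell makes all the chains, or carries them as protein on its surface, was not examined.

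**Figure D1:**
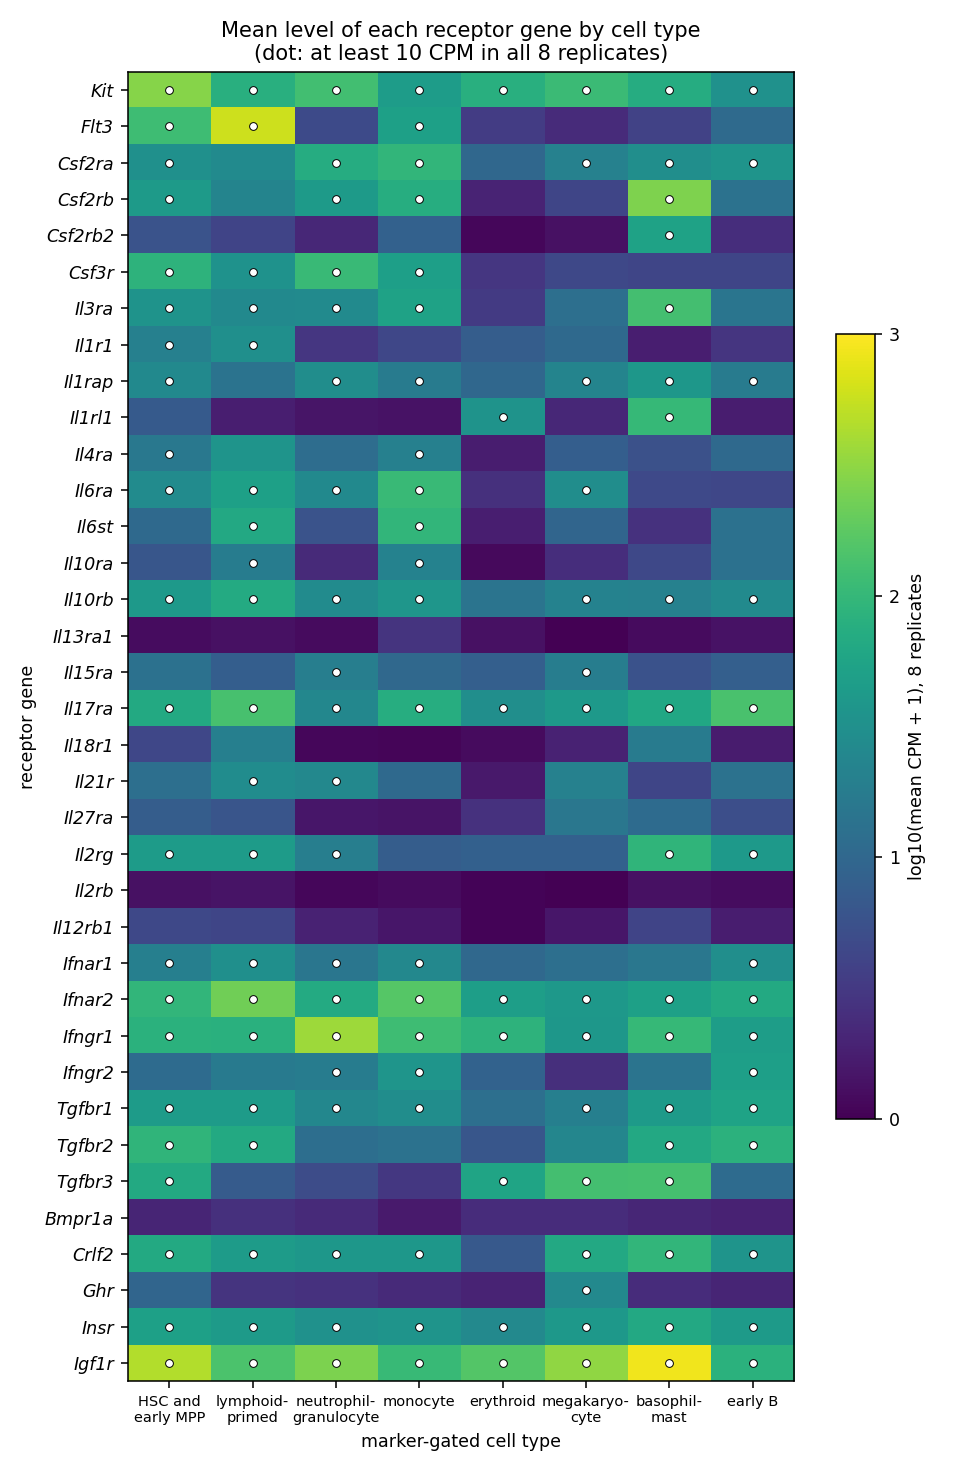
Mean level of the 36 receptor genes (rows) in the 8 marker-gated cell types (columns), as log10 of the mean CPM over 8 replicates plus 1; a dot marks a gene at 10 CPM or more in all 8 replicates. Flt3 is brightest in lymphoid-primed progenitors at a mean of 594 CPM, Igf1r in basophil-mast progenitors at 866 CPM, and the erythroid column holds the fewest dots, 8.

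Flt3, the receptor tyrosine kinase for FLT3 ligand that marks early lymphoid and dendritic potential, was highest in lymphoid-primed progenitors. It had values of 508 to 720.1 CPM (median 572) there, against values of 79.3 to 147 CPM (median 115) in HSC and early multipotent progenitors and values of 39.9 to 63.8 CPM (median 49.9) in monocyte progenitors. The ranges of these 3 types did not overlap one another, and no other type held Flt3; in erythroid progenitors it averaged 2.39 ± 1.42 CPM. At least 1 Flt3 UMI was seen in 93.5% of lymphoid-primed cells (median 6690 UMIs) and 2.46% of erythroid cells (median 13267 UMIs), and in 71.6% and 0.539% after each cell was thinned to 2000 UMIs, which left out 16 and 94 shallower cells. Both dendritic cell gates, which had too few cells for values per replicate, carried it as well. Flt3 stood at 469 CPM (95% exact Poisson interval 412 to 531) in 126 plasmacytoid dendritic cells and at 241 CPM (95% exact Poisson interval 208 to 277) in 301 conventional dendritic cells. These intervals, like all intervals given here for pooled cells, cover counting error only.

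Kit averaged 282 ± 31.6 CPM in HSC and early multipotent progenitors and was held in all 8 types, but the sort used cKit, so this is no finding; its lowest type was early B cells at 32.1 ± 6.21 CPM. Igf1r, the receptor of insulin-like growth factor 1, was held in all 8 types too, with values of 782 to 929.7 CPM (median 849) in basophil-mast progenitors and values of 388 to 519 CPM (median 451) in HSC and early multipotent progenitors. Those 2 ranges did not overlap, and all other types lay below both, down to 81.2 CPM in early B cells. Insr, the insulin receptor, was spread more evenly, from 24.96 ± 3.89 CPM in erythroid to 63.8 ± 11.6 CPM in basophil-mast progenitors, and each neighbour in its order of types overlapped the next. Ghr, the growth hormone receptor, was held in megakaryocyte progenitors alone of the 8 types, with values of 15.7 to 31.96 CPM (median 26.2); the next type, HSC and early multipotent progenitors, averaged 8.57 ± 2.17 CPM and did not overlap it.

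The chains for the myeloid colony-stimulating factors differed in their highest type, although neutrophil-granulocyte and monocyte progenitors both held Csf3r, Csf2ra and Csf2rb. Csf3r, the G-CSF receptor, had values of 96.02 to 115 CPM (median 111) in neutrophil-granulocyte progenitors and values of 67.4 to 106 CPM (median 82.5) in HSC and early multipotent progenitors, and these 2 ranges overlapped. It was also held in monocyte progenitors, at 48.1 ± 3.42 CPM, and lymphoid-primed progenitors, at 33.1 ± 10.9 CPM, while the 4 other types averaged 1.999 to 3.42 CPM. Csf3r UMIs were found in 74.9% of neutrophil-granulocyte and 40.7% of HSC and early multipotent cells, and after thinning in 21.2% and 16.5%, beside 0.494% of erythroid cells. Depth differed between these types, with a median of 15891 UMIs per neutrophil-granulocyte cell and 6488 per HSC and early multipotent cell. In 85 late neutrophils Csf3r stood at 159.7 CPM (95% exact Poisson interval 129 to 196).

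Csf2ra, the chain that binds GM-CSF, was highest in monocyte progenitors, with values of 74.5 to 117 CPM (median 92.3), followed by neutrophil-granulocyte progenitors with values of 61.2 to 77.7 CPM (median 70.9); the ranges overlapped although the monocyte value was higher within all 8 replicates. Csf2rb, the signalling chain shared by the GM-CSF, IL-3 and IL-5 receptors, had another order, with values of 210.3 to 299.6 CPM (median 264) in basophil-mast progenitors and values of 66.6 to 81.5 CPM (median 75.6) in monocyte progenitors. Early B cells held Csf2ra, at 35 ± 7.01 CPM, but not Csf2rb, at 12.4 ± 3.56 CPM, and megakaryocyte progenitors likewise had 19.9 and 3.21 CPM. The full GM-CSF receptor was therefore held in 4 types, the HSC and early multipotent, neutrophil-granulocyte, monocyte and basophil-mast progenitors. Lymphoid-primed progenitors had both chains on average, with values of 5.60 to 42.4 CPM (median 30.9) for Csf2ra and values of 8.61 to 33.6 CPM (median 22.03) for Csf2rb, but each fell under 10 CPM in at least 1 replicate, in the type with the fewest UMIs of the 8. Il3ra, the chain that binds IL-3, had values of 109.7 to 143 CPM (median 126) in basophil-mast progenitors, above the values of 41.2 to 57.7 CPM (median 53.4) in monocyte progenitors, and the IL-3 receptor was held in the same 4 types.

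Csf2rb2, a mouse-specific beta chain that serves IL-3 alone, was held in basophil-mast progenitors and in none of the other 7 types. It had values of 32.7 to 73.4 CPM (median 51.8) there and averaged 7.61 ± 2.22 CPM in monocyte progenitors, the next type. Its level in basophil-mast progenitors differed between the batches, 39.2 ± 5.75 CPM in batch 1 and 66.1 ± 6.11 CPM in batch 2 (SD, n = 4), the widest such gap among 129 gene and type pairs with a mean of 20 CPM or more. Csf2rb2 and Csf2rb are near copies 20030 bases apart on chromosome 15 (Csf2rb2 at chr15:78282507-78305721 on the minus strand, Csf2rb at chr15:78325752-78353847 on the plus strand, GRCm38). Of the 50-base windows of the main Csf2rb transcript, 18.9% occur in Csf2rb2 too, but 0% of those in its last 500 bases, the stretch that a 3′ assay reads most. Over the 7 transcripts of both genes compared, 0% to 37.6% of the windows in the last 500 bases were shared. How reads matching both genes were counted was not stated.

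Of the IL-1 family receptors, Il1rl1 was highest in basophil-mast and Il1r1 in lymphoid-primed progenitors. Il1rl1, the IL-33 receptor chain ST2, had values of 79.4 to 125 CPM (median 101) in basophil-mast progenitors and values of 20.96 to 42.97 CPM (median 34.8) in erythroid progenitors. These ranges did not overlap, and the other 6 types averaged at most 6.002 CPM. Il1rl1 UMIs were present in 44.6% of basophil-mast and 34.5% of erythroid cells but in 0.449% of monocyte progenitors, and after thinning in 17.1%, 8% and 0.0779%. Il1rap, the accessory chain of the IL-1 and IL-33 receptors, was held in 6 types, with its highest mean in basophil-mast progenitors at 37.6 ± 4.52 CPM. It missed 10 CPM in at least 1 replicate of erythroid progenitors, with values of 6.46 to 12.4 CPM (median 8.85), so the IL-33 receptor was held in basophil-mast progenitors only. Il1r1, the receptor that binds IL-1 itself, had values of 16.8 to 46.3 CPM (median 29.7) in lymphoid-primed progenitors and values of 11.3 to 25.3 CPM (median 19.8) in HSC and early multipotent progenitors, which overlapped, and 0.794 CPM in basophil-mast progenitors. The IL-1 receptor was held in HSC and early multipotent progenitors, and not in lymphoid-primed progenitors, where Il1rap had values of 0 to 19.3 CPM (median 16.4). Lymphoid-primed progenitors, the type with the fewest UMIs, had the higher mean of Il1r1 and missed the rule through low values of Il1rap.

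Il18r1, the chain that binds IL-18, was held in none of the 8 types and averaged 18.5 ± 7.13 CPM in lymphoid-primed and 16.5 ± 5.91 CPM in basophil-mast progenitors. Its partner Il18rap was held in those same types, at 108 ± 15.5 CPM and 108 ± 12.7 CPM. Among 392 cells of the T, NK or innate lymphoid gate, Il18r1 stood at 204 CPM (95% exact Poisson interval 183 to 228). In 108 eosinophil progenitors, a relative of the basophil line, Il1rl1 stood at 32.7 CPM (95% exact Poisson interval 20.3 to 50.1). Il1rl1 and Il18r1 lie 136 bases apart on the plus strand of chromosome 1 (chr1:40429570-40465415 and chr1:40465552-40500854), so reads near their junction may belong to either gene, and whether counting used strand was not stated.

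The promoters of Il1rl1, Csf3r and Csf2rb2 are shown as examples of genes held in some types and under 5 CPM on average in at least 4 others, and that of Il3ra as a gene highest in basophil-mast progenitors whose stretch has neither string marked below. Each is the 250 bases before a transcription start in RefSeq on GRCm38.p6, 5′ to 3′ along the gene's strand, and capitals mark GATAA or GAGGAA on either strand, letter strings found within the preferred sites of GATA factors and of PU.1. RefSeq gives Il1rl1 a pair of starts, chr1:40429320-40429569 and chr1:40439379-40439628 being the bases before them, and the Csf3r, Csf2rb2 and Il3ra stretches are chr4:126024409-126024658, chr15:78305722-78305971 and chr14:14346245-14346494.
Il1rl1, first start, plus strand: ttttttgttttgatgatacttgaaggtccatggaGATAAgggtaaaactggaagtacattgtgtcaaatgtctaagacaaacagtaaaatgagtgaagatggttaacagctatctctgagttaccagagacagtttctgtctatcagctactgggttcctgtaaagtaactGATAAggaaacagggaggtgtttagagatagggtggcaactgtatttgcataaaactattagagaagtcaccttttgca
Il1rl1, second start, plus strand: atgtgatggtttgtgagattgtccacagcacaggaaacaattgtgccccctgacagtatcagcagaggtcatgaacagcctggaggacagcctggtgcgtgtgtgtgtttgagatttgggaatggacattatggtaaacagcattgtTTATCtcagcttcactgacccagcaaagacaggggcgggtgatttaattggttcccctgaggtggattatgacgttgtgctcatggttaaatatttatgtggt
Csf3r, plus strand: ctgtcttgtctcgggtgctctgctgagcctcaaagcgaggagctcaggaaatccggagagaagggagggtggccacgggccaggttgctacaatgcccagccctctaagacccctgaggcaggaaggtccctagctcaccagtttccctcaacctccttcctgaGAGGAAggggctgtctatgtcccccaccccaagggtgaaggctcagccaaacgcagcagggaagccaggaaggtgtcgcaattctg
Csf2rb2, minus strand: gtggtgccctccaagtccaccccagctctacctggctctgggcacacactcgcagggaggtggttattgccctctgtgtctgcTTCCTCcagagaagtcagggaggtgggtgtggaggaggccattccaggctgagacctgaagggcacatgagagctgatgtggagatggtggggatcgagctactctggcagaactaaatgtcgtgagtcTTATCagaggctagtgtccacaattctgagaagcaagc
Il3ra, plus strand: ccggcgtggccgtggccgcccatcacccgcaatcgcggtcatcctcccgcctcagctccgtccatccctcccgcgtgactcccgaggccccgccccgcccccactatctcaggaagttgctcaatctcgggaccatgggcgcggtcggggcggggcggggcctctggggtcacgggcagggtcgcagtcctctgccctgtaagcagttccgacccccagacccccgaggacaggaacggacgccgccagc
GATAA occurred 2 times before the first Il1rl1 start, 1 time before the second and 1 time before Csf2rb2, and GAGGAA occurred 1 time each before Csf3r and Csf2rb2. Before Il3ra both occurred 0 times. RefSeq's table holds 27 of the 36 genes. At least 1 GATAA was found for 4 of the 27, beside 25.5% of all 27025 genes in the table (22.6% of all 32851 promoters), and GAGGAA for 12 of the 27, beside 25.9% of genes (23.3% of promoters). In all, 9 letter strings were searched on both strands: AGATAA was found for 2 of the 27 genes (11.4% of all genes in the table), GAGGAAGT for 0 (2.79%), TTGCNNAA for 4 (10.8%), TTCNNNGAA for 3 (8.13%), TGTGGT for 4 (15.9%), CCGGAAGT for 1 (3.23%) and TGACTCA for 1 (5.16%). GATAA lies within AGATAA and GAGGAA within GAGGAAGT. The strings to mark and the genes to print were chosen after the levels and the matches had been seen, so the matches are a description of these letters.

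Il2rg, the common gamma chain, had values of 77.7 to 107 CPM (median 91.03) in basophil-mast progenitors, above every value of the other 7 types. It was held in 4 further types, with 43.4 ± 11.01 CPM in lymphoid-primed progenitors, and was low in monocyte progenitors at 6.68 ± 2.70 CPM. Il4ra, the IL-4 receptor alpha chain, averaged 34.6 ± 16.4 CPM in lymphoid-primed progenitors, with values of 8.61 to 57.8 CPM (median 34.2), a spread too wide for a held call, and was held in HSC and early multipotent progenitors at 14.9 ± 2.62 CPM and monocyte progenitors at 19.3 ± 2.33 CPM. By the held rule, the type I IL-4 receptor of Il4ra and Il2rg was held in HSC and early multipotent progenitors alone of the 8 types. Lymphoid-primed progenitors, the type with the fewest UMIs, had higher means of Il4ra and missed the rule through its lowest value. Il13ra1, the chain that turns Il4ra into a receptor for IL-13, averaged 1.85 ± 1.40 CPM in monocyte progenitors and at most 0.388 CPM in each other type. Il21r, for IL-21, was held in lymphoid-primed progenitors at 27.5 ± 4.58 CPM and neutrophil-granulocyte progenitors at 24.01 ± 1.27 CPM. Both types held Il2rg as well, so by the held rule the IL-21 receptor was held in both.

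Il15ra, which presents IL-15 to other cells, was held in neutrophil-granulocyte progenitors at 18.3 ± 1.43 CPM and megakaryocyte progenitors at 17.7 ± 7.79 CPM, and these overlapped. Il2rb, the signalling chain for IL-2 and IL-15, reached a mean of at most 0.442 CPM in the 8 types, while the T, NK or innate lymphoid gate had 900.1 CPM (95% exact Poisson interval 854 to 948). No type therefore held the IL-15 receptor. Crlf2, the TSLP receptor chain, was held in 7 types, with values of 80.5 to 103 CPM (median 90.7) in basophil-mast progenitors and 5.96 ± 1.98 CPM in erythroid progenitors, the one type that did not hold it. Its partner Il7r, also the IL-7 receptor, was held in early B cells at 252 ± 22.8 CPM and lymphoid-primed progenitors at 131 ± 21.7 CPM, and averaged 2.52 CPM in basophil-mast progenitors, so the TSLP receptor was held in the former pair of types.

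Il6ra and Il6st (gp130), the binding and signalling chains for IL-6, were both highest in monocyte progenitors. Il6ra had values of 88.9 to 123 CPM (median 106) there and averaged 49.96 ± 16.3 CPM in lymphoid-primed progenitors. Il6st had values of 83.6 to 112 CPM (median 90.5) in monocyte progenitors and values of 48.8 to 107 CPM (median 58.3) in lymphoid-primed progenitors, which overlapped, and at most 12.2 CPM as the mean of any other type. HSC and early multipotent, neutrophil-granulocyte and megakaryocyte progenitors held Il6ra but not Il6st, so the IL-6 receptor was held in monocyte and lymphoid-primed progenitors. Il27ra, the IL-27 chain that also signals through gp130, was held nowhere and averaged 14.4 ± 4.30 CPM in megakaryocyte progenitors, its highest type. Il12rb1, shared by the IL-12 and IL-23 receptors, averaged at most 3.45 ± 1.76 CPM, in HSC and early multipotent progenitors.

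Il10ra, the private IL-10 chain, was held in monocyte progenitors at 20.2 ± 2.68 CPM and lymphoid-primed progenitors at 17.3 ± 4.47 CPM. Its partner Il10rb, also used by interferon lambda and IL-22 receptors, was held in 7 types and highest in lymphoid-primed progenitors, with values of 57.4 to 84.03 CPM (median 63.2). The IL-10 receptor was thus held in the same pair of types as the IL-6 receptor. Il17ra, the IL-17 receptor chain, was held in all 8 types, from 23.5 ± 2.30 CPM in neutrophil-granulocyte progenitors to 132 ± 25.5 CPM in lymphoid-primed progenitors and 137 ± 14.8 CPM in early B cells, whose ranges overlapped. Il17rc, which joins Il17ra to bind IL-17A, averaged at most 0.392 CPM in any of the 8 types, and no type held that receptor.

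Ifnar1 and Ifnar2 form the type I interferon receptor. Ifnar2 was held in all 8 types and highest in lymphoid-primed progenitors, with values of 183 to 291 CPM (median 216), above the values of 147 to 170.2 CPM (median 163) in monocyte progenitors. Ifnar1 was held in 5 types, between 13.9 ± 0.992 CPM in neutrophil-granulocyte and 30.5 ± 7.89 CPM in lymphoid-primed progenitors, and missed the minimum in erythroid, megakaryocyte and basophil-mast progenitors, where it averaged 9.30, 11.6 and 14.5 CPM. By the held rule the whole receptor was thus held in those 5 types. Basophil-mast progenitors missed the rule for Ifnar1 although their mean was above that of neutrophil-granulocyte progenitors. In the smallest replicate 1 UMI is worth 2.34 CPM in the former and 0.132 CPM in the latter, so counting error weighs more on the rule in the former. For interferon gamma, the ligand-binding chain Ifngr1 had values of 302 to 415 CPM (median 361) in neutrophil-granulocyte progenitors, with every value above those of all other types; monocyte progenitors followed at 117 ± 12.1 CPM. The signalling chain Ifngr2 was highest in early B cells at 48.7 ± 8.05 CPM and monocyte progenitors at 35.2 ± 4.52 CPM, which overlapped, and lowest in megakaryocyte progenitors at 1.55 ± 1.40 CPM. Ifngr1 was held in all 8 types and Ifngr2 in 3, neutrophil-granulocyte progenitors included, at 17.03 ± 1.12 CPM. Ifnar2 and Il10rb are 574 bases apart on the plus strand of chromosome 16, with Ifnar1 59.4 kb past Il10rb and Ifngr2 39.6 kb past Ifnar1.

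Tgfbr2, the ligand-binding TGF-beta receptor, had values of 69.7 to 105 CPM (median 92.5) in HSC and early multipotent progenitors and values of 65.2 to 94.8 CPM (median 85.8) in early B cells, which overlapped. It was held in lymphoid-primed progenitors at 65.4 ± 15.3 CPM and basophil-mast progenitors at 63.6 ± 8.30 CPM too, but averaged 12.6 ± 1.48 CPM in monocyte and 11.2 ± 1.34 CPM in neutrophil-granulocyte progenitors and 5.43 ± 1.59 CPM in erythroid progenitors. Tgfbr1, the signalling partner, was held in 7 types, so that both chains were held in the 4 types with Tgfbr2; it averaged from 18.5 ± 2.94 CPM in megakaryocyte progenitors to 53.7 ± 7.47 CPM in early B cells. Tgfbr3, the co-receptor betaglycan, followed another order: it had values of 103 to 158 CPM (median 129.8) in basophil-mast and values of 88.1 to 197 CPM (median 119) in megakaryocyte progenitors, averaged 66.02 ± 13.1 CPM in HSC and early multipotent and 54.8 ± 7.98 CPM in erythroid progenitors, and was low in monocyte progenitors at 2.03 ± 0.786 CPM. Bmpr1a, a receptor of bone morphogenetic proteins, averaged 0.667 to 1.62 CPM in the 8 types and was held in none, whereas its partner Bmpr2 was held in 5, with 55.6 ± 8.93 CPM in HSC and early multipotent progenitors.

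**Figure D2:**
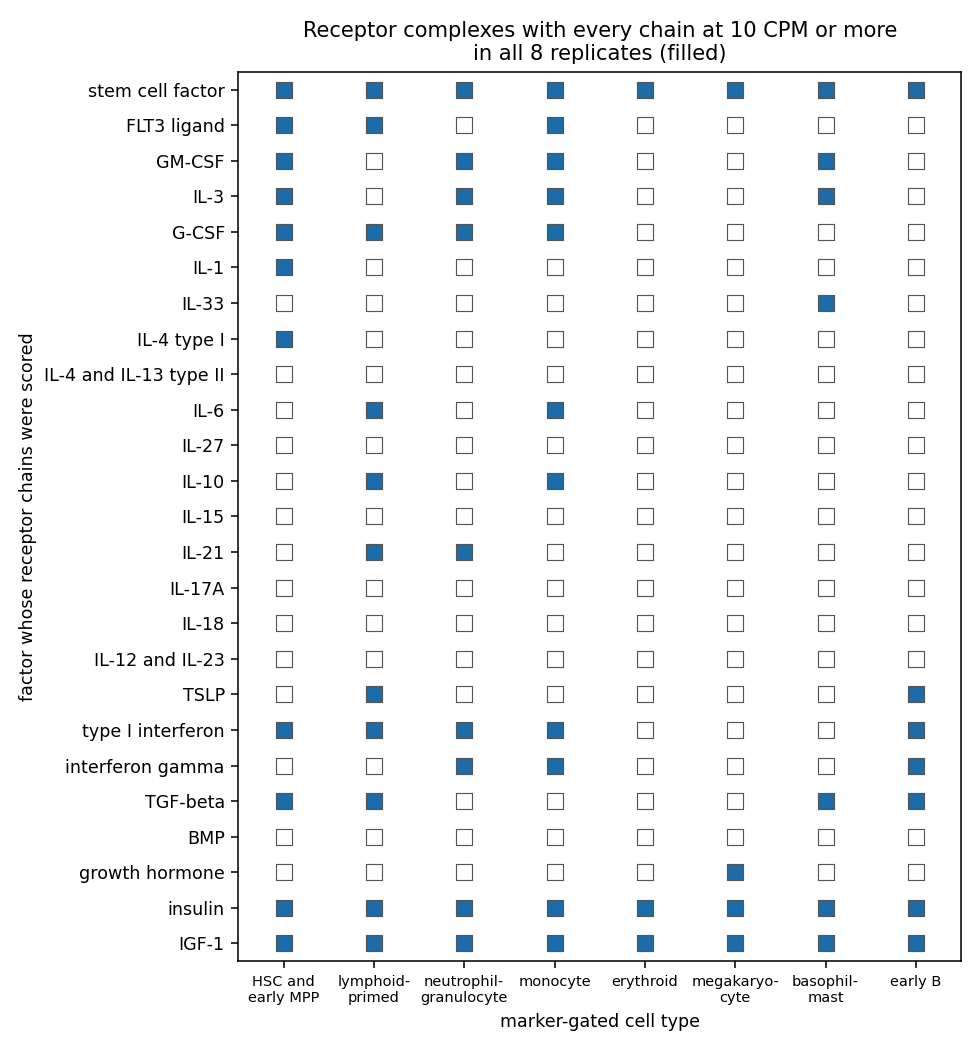
Receptors of 25 factors (rows) in the 8 cell types (columns), filled where the summed RNA of every chain reached 10 CPM in all 8 replicates. Stem cell factor, insulin and IGF-1 are filled across all 8 types, IL-33 in basophil-mast progenitors, growth hormone in megakaryocyte progenitors, and 7 rows are empty; 63 of 200 squares are filled.

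For 12 of the 36 genes the lowest replicate of the highest type was above the highest replicate of every other type: Kit, Flt3, Csf2rb, Csf2rb2, Il3ra, Il1rl1, Il10rb, Il2rg, Ifnar2, Ifngr1, Ghr and Igf1r. The highest type of each other gene overlapped at least 1 other type. Basophil-mast progenitors were the highest type for 10 genes, 6 of them in that way, and lymphoid-primed progenitors for 10, 3 of them in that way. Batch 2 over batch 1 had a median of -0.03 (log2) over the 129 pairs at 20 CPM or more, with an SD of 0.23 and 6 pairs beyond 0.5 in size. A lower total of a receptor in a type may stem from fewer cells making it or from less RNA per cell, which summed counts cannot tell apart.

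**Figure D3:**
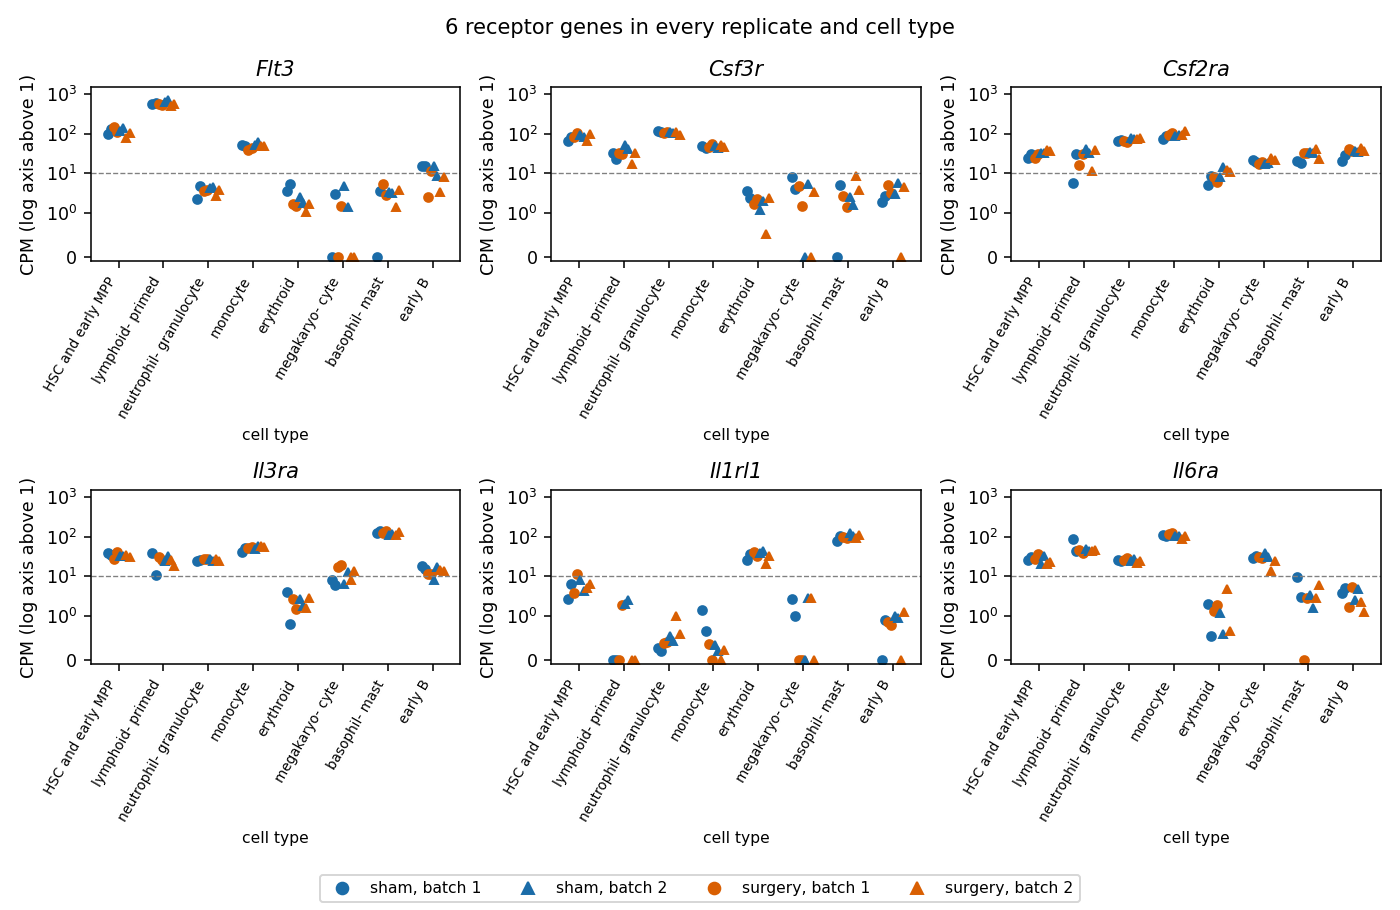
CPM of 6 receptor genes in every replicate (points) of the 8 cell types, on an axis that is logarithmic above 1 CPM and linear below; colour gives the group, circles batch 1 and triangles batch 2, and the dashed line is 10 CPM. Il3ra is highest in basophil-mast progenitors, 109.7 to 143 CPM, and Il6ra in monocyte progenitors, 88.9 to 123 CPM, with sham and surgery points intermixed.

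Surgery was then compared with sham within each type, to ask whether limb ischaemia changed the receptor transcripts of the progenitors of these tumour-bearing mice. A single gene in a single type passed the test: Tgfbr3 was higher after surgery in neutrophil-granulocyte progenitors, where it is a minor transcript. Its sham values were 2.90 and 2.71 CPM in batch 1 and 2.82 and 2.67 CPM in batch 2, and its surgery values were 4.70 and 4.74 CPM in batch 1 and 6.34 and 5.03 CPM in batch 2. All 4 surgery replicates lay above all 4 sham replicates, and the surgery spread was the wider. The means were 2.77 ± 0.108 and 5.20 ± 0.770 CPM (SD, n = 4), a log2 fold change of 0.92 ± 0.15 (SE) with an adjusted p of 0.0497 in edgeR's quasi-likelihood test. Estimated for each batch within the joint fit, it was 0.76 in batch 1 and 1.06 in batch 2. Tgfbr3 lies at chr5:107106570-107289629 on the minus strand (GRCm38). The result rests on 431 UMIs in 6825 cells, and Tgfbr3 stayed under 10 CPM in every replicate.

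Of 190 gene and type pairs that passed the filter on low counts, 1 was called (0.526%), beside 72 of 78039 pairs (0.0923%) over all genes and 9 of 13506 genes (0.0666%) in neutrophil-granulocyte progenitors. A count of 1 is too small to set the receptors apart from other genes. The Tgfbr3 call was at the threshold: 4 of 21 alternative analyses kept it, DESeq2 gave an adjusted p of 0.0626, and it was lost when any single replicate was left out, with adjusted p between 0.0551 and 0.332 and fold changes between 0.82 and 0.97. Summed markers of the types richest in Tgfbr3 were measured in the same neutrophil-granulocyte sums. The 9 basophil-mast markers, 2 of which (Cma1 and Tpsb2) were at 0, summed to 195 to 215 CPM in sham and 216 to 223 CPM in surgery replicates, so the surgery values were slightly higher without overlap. The 11 megakaryocyte markers summed to 14.2 to 18.1 and 14.5 to 18.7 CPM, the 11 erythroid markers to 42.0 to 54.9 and 43.7 to 55.9 CPM and the 9 HSC markers to 163 to 191 and 163 to 188 CPM. Their part in the Tgfbr3 difference was not tested.

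Elsewhere Tgfbr3 gave no call. In monocyte progenitors it failed the count filter, with 63 UMIs, sham values of 1.39, 1.33, 1.37 and 1.69 CPM and surgery values of 2.10, 3.34, 1.95 and 3.09 CPM. These also did not overlap but have no test in the main fit. The alternative fit without the low-count filter did test Tgfbr3 in monocyte progenitors and did not call it. The 9 basophil-mast markers, Cma1 and Tpsb2 again at 0, summed to 38.4 to 46.9 CPM in these sham sums and 37.3 to 125 CPM in these surgery sums. The highest sum was that of surgery replicate 1 of batch 2, which had the lowest of the surgery values of Tgfbr3, and their part in the difference was not tested. In erythroid progenitors it averaged 50.02 ± 5.49 CPM in sham and 59.5 ± 7.65 CPM in surgery replicates (log2 0.24 ± 0.09, edgeR adjusted p 0.9999), and the groups overlapped. In the types richest in it the log2 values were -0.03 ± 0.16 in megakaryocyte and -0.08 ± 0.11 in basophil-mast progenitors, each within 1 SE of 0.

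Of the 190 pairs, 95 were higher and 95 lower after surgery, 15 had an unadjusted p under 0.05 (7.89%, beside 4.44% of all gene and type pairs), and DESeq2 called 0. The median log2 difference of the receptor genes lay between -0.14 (16 genes, megakaryocyte progenitors) and 0.05 (27 genes, monocyte progenitors), while that of all genes tested was 0.00 in each type. Outside neutrophil-granulocyte progenitors 0 receptor genes were called by edgeR, beside 0.514% of all genes in lymphoid-primed progenitors, 0.116% in monocyte progenitors, 0.077% in HSC and early multipotent progenitors, 0.0428% in early B cells and 0.0116% in basophil-mast progenitors. In erythroid and megakaryocyte progenitors 0 of all genes were called by edgeR and 0 by DESeq2, with 342 and 338 at an unadjusted p under 0.05. Tested pairs covered 34 of the 36 genes, since Il13ra1 and Il2rb passed the filter on low counts in none of the 8 types, and 11 genes were tested in all 8.

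**Figure D4:**
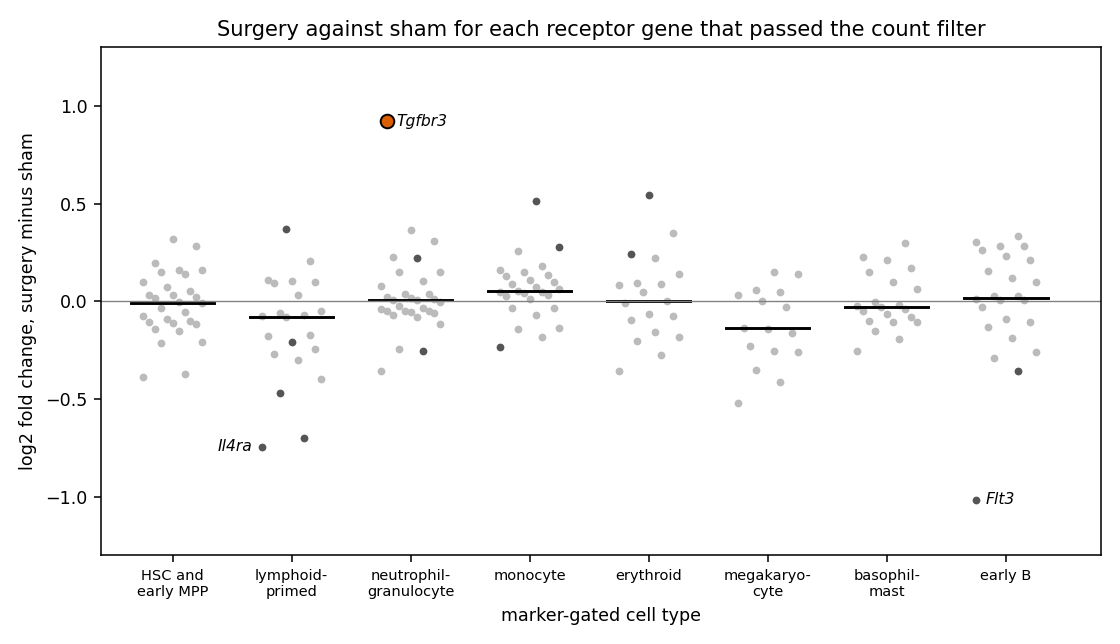
Log2 fold change, surgery against sham, of each receptor gene tested (points) in the 8 cell types, with a bar at the median; orange marks an adjusted p under 0.05, dark grey an unadjusted p under 0.05. The single orange point is Tgfbr3 in neutrophil-granulocyte progenitors at 0.92, and the medians lie between -0.14 and 0.05.

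In monocyte progenitors the lowest p belonged to Csf2ra, with sham values of 74.5, 86.6, 86.03 and 93.999 CPM and surgery values of 93.7, 107, 90.8 and 117 CPM, which overlapped. Its log2 difference was 0.28 ± 0.08, with 0.28 in batch 1 and 0.28 in batch 2, and an edgeR adjusted p of 0.456 (unadjusted 0.00199). Flt3 came next there at log2 -0.23 ± 0.09 (edgeR adjusted p 0.791), and all 4 surgery replicates lay under the sham mean of their batch. In neutrophil-granulocyte progenitors Insr followed Tgfbr3, with means of 29.1 ± 1.93 CPM in sham and 33.97 ± 3.91 CPM in surgery replicates (n = 4 each, log2 0.22 ± 0.06, edgeR adjusted p 0.766).

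The largest log2 difference without a call was that of Flt3 in early B cells. Sham replicates stood at 15.1, 15.3, 15.3 and 8.62 CPM and surgery replicates at 2.56, 11.7, 3.37 and 8.30 CPM. The groups overlapped through 1 low sham and 1 high surgery replicate. The log2 difference was -1.02 ± 0.36, -1.06 and -0.97 in batch 1 and batch 2, with an edgeR adjusted p of 0.9999. Kit was second in early B cells at -0.36 ± 0.17 (adjusted p 0.9999 in edgeR). In lymphoid-primed progenitors Il4ra stood at 22.4, 39.4, 54.5 and 57.8 CPM in sham and 25.4, 37.1, 8.61 and 31.4 CPM in surgery replicates, and its log2 difference of -0.74 ± 0.28 (edgeR adjusted p 0.365) was wider in batch 2, at -1.23, with -0.12 in batch 1. Il17ra there was at 0.37 ± 0.15 (edgeR adjusted p 0.421), with all 4 surgery replicates above the sham mean of their batch.

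**Figure D5:**
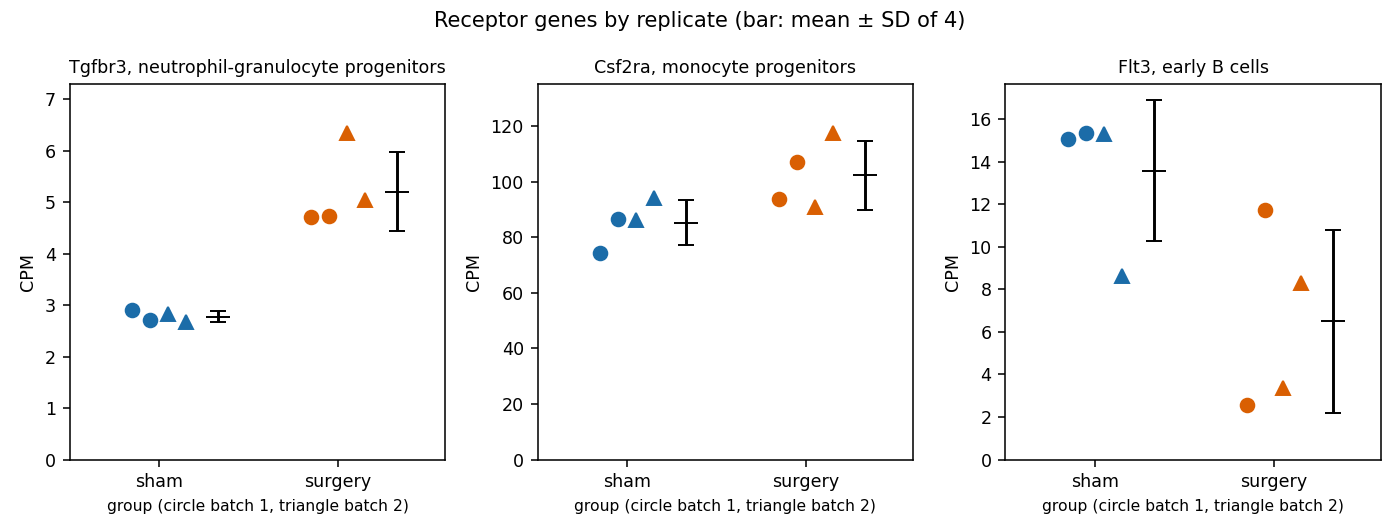
CPM of 3 receptor genes in every replicate (points), sham and surgery side by side, with the batches told apart by marker. Bars give the mean and SD of the 4 replicates of a group. The genes are Tgfbr3 in neutrophil-granulocyte progenitors, Csf2ra in monocyte progenitors and Flt3 in early B cells. The Tgfbr3 groups do not overlap (2.67 to 2.90 and 4.70 to 6.34 CPM), whereas those of the other genes do.

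In HSC and early multipotent progenitors the lowest p values were those of Flt3 at log2 -0.21 ± 0.11 and Il17ra at 0.16 ± 0.10, in erythroid progenitors those of Tgfbr3 and of Crlf2 at 0.54 ± 0.24, in megakaryocyte progenitors those of Kit at -0.25 ± 0.15 and Il6ra at -0.41 ± 0.26, and in basophil-mast progenitors those of Ifngr1 at 0.17 ± 0.13 and Ifnar2 at 0.21 ± 0.17. All of these had an edgeR adjusted p of 0.998 or more. The SE over receptor genes had a median of 0.07 in neutrophil-granulocyte progenitors and 0.28 in megakaryocyte progenitors, so the latter could show only larger changes. The absence of a call does not show equal levels.

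Sham and surgery values did not overlap in 5 of the 190 pairs (2.63%), near the 2.3% of all 78039 gene and type pairs, of which 0.0923% were called. Besides Tgfbr3 these were 4 pairs without a call, named here after their values were seen. In monocyte progenitors Csf2rb, the common beta chain, stood at 66.6, 70.3, 75.3 and 69.7 CPM in sham and 75.9, 81.5, 75.9 and 76.3 CPM in surgery replicates, a log2 difference of 0.13 ± 0.07 (edgeR adjusted p 0.908). Its richest type is basophil-mast progenitors, whose markers in these monocyte sums were given above for Tgfbr3, and their part was not tested here either. In neutrophil-granulocyte progenitors Tgfbr2 stood at 12.9, 11.9, 13.1 and 11.2 CPM in sham and 9.31, 10.2, 10.9 and 10.3 CPM in surgery replicates (log2 -0.25 ± 0.09, edgeR adjusted p 0.9999). There the differences of Tgfbr2, which had no call, and of the co-receptor Tgfbr3, whose call was at the threshold, were of opposite sign. No relation between them was tested. Il10rb in lymphoid-primed progenitors was lower after surgery by log2 -0.27 ± 0.19 and Tgfbr1 in megakaryocyte progenitors by -0.35 ± 0.30, with edgeR adjusted p of 0.751 and 0.998.

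The surgery effect was also compared between the batches. Of 190 pairs, 0 differed by the edgeR test of the group-by-batch term (37 of 78039 pairs over all genes, 0.0474%), and 15 had an unadjusted p under 0.05. Over all genes, such a p was seen for 591 of 10395 in HSC and early multipotent and 337 of 7193 in lymphoid-primed progenitors. It was seen for 908 of 13506 in neutrophil-granulocyte, 597 of 11237 in monocyte and 368 of 10165 in erythroid progenitors. Megakaryocyte progenitors had 377 of 7584, basophil-mast progenitors 439 of 8609 and early B cells 313 of 9350. By type the share of all genes called was 0.163% in basophil-mast progenitors, 0.125% in monocyte progenitors, 0.0385% in HSC and early multipotent progenitors, 0.0214% in early B cells, 0.0148% in neutrophil-granulocyte progenitors, 0.00984% in erythroid progenitors and 0% in lymphoid-primed and megakaryocyte progenitors. The lowest p belonged to Il6st in neutrophil-granulocyte progenitors, where gp130 is a minor transcript. In batch 1 it stood at 4.22 and 4.56 CPM in sham and 6.02 and 7.05 CPM in surgery replicates, and in batch 2 at 5.10 and 5.47 against 3.52 and 3.20 CPM. Surgery values were thus above sham values in batch 1 and below them in batch 2, with log2 differences of 0.55 and -0.64. The difference between the batches was -1.19 ± 0.27 (SE), with an edgeR adjusted p of 0.323. Ifngr1, the interferon gamma receptor chain, came next in that type, with -0.13 and 0.15 (edgeR adjusted p of the difference 0.446). Over the 190 pairs, 98 had the same sign in both batches.

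Genes next to these receptors in their pathways gave no call either. Of 41 other receptors and chains of the same families, 85 gene and type pairs were tested, with 46 higher, 39 lower, 0 called by edgeR or DESeq2 and 3 at an unadjusted p under 0.05 (3.53%). Of 36 signal carriers, among them Janus kinases, STAT and SMAD factors and their inhibitors, 240 pairs were tested, with 123 higher, 117 lower, 0 called by edgeR or DESeq2 and 10 at an unadjusted p under 0.05 (4.17%). The lowest adjusted p was 0.152, for Smad7, an inhibitor of TGF-beta signalling, in lymphoid-primed progenitors, a gene named after its values were seen.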

How the data were processed

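Expression was measured by PIPseq, droplet single-cell RNA sequencing, in 2 captures of hashtagged marrow cells. The authors deposited raw UMI counts, as whole numbers for each gene in each barcode. Cell Ranger and GRCm38 are named per the submitters' processing notes, and the version, strand setting and handling of multiply mapped reads are not given in the sources used here. Hashtag counts, 22.2% and 16.1% of all counts in batch 1 and batch 2, stayed out of library sizes and tests.

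A barcode needed 500 genes, 1000 UMIs and no more than 10% mitochondrial UMIs, which 17065 of 18094 met in batch 1 and 13568 of 14179 did in batch 2. Those with exactly 1 hashtag at 200 counts or more were used (14678 and 12264). Barcodes with several hashtags (602 and 322) or none (1785 and 982) were left out. No doublet caller was run, so doublets within a hashtag remain. The captures shared 5 barcode sequences. A cell took the type with the highest mean marker score, centred over cells, where at least 3 markers were seen and the score was 1.5 times that of the next type. Of 2 scoring rules and 4 ratios viewed, this was chosen on cell yields and leading genes before any surgery comparison, and the first rule is kept as an alternative. That first rule gated 1051 monocyte progenitors against 2671 here, and 83.7% of the cells gated here kept their type under it. In the monocyte sums, neutrophil-granulocyte markers summed to 10091 to 11320 CPM and monocyte markers to 4718 to 5321 CPM. UMIs were summed per replicate and type (totals per replicate of 19521590 to 51862441 UMIs over all cells) and tested per type with edgeR 4.0.16 (filterByExpr, TMM, quasi-likelihood, batch as a term, R 4.3.3), with Benjamini-Hochberg adjustment over all genes of the type and an adjusted p under 0.05 as a call. The difference between batches was the group-by-batch term. DESeq2 1.42.0 was an alternative. On data simulated for the 8 comparisons (7193 to 13506 genes), 31.3% to 70.1% of genes changed by 0.5 (log2) were recovered, 79.1% to 91.0% of those changed by 1 and 98.5% to 100% of those changed by 2, with 3 to 11 false calls. Each simulation changed 66 or 67 genes by each size, while at most 37 genes were called in any type of the real data. It gave genes of like level the same spread and held no batch shift, so recovery in the real data may be lower. In each type, every receptor gene called and the 2 with the lowest p are named. Promoter strings were first searched in 300 bases and then in the 250 bases before the start. The receptor genes and lists were chosen with earlier results of these data known.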

Additional observations from a re-analysis of the deposited data

Results flagged for a closer look

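Flt3 in early B cells had a sham replicate, replicate 2 of batch 2, at 8.62 CPM, far below the other 3 sham replicates at 15.1 to 15.3 CPM. The gap to its nearest neighbour was 0.961 of the range of the group. It was the only such value in 32 groups of 4 replicates examined for the named gene and type pairs, and chance alone gives about 1 in 20.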

How the results depend on the processing

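The count of 1 receptor gene called was 1 with RLE scaling, without the low-count filter, with a hashtag minimum of 500 and without the 2% of cells with the most UMIs. It was 0 without the batch term, with DESeq2, with a hashtag minimum of 50, with a stricter gate (ratio 3), with a gate without Dntt and Mpo, with cells thinned to 2000 UMIs, with the uncentred score and in batch 1 or batch 2 alone, and 0 whichever single replicate was left out. The uncentred score and the single batches were chosen after seeing the data. With the replicate block the count was 0 (Tgfbr3 adjusted p 0.0816). Same-numbered replicates did not deviate together (correlations of -0.13 to 0.06). Each correlation rests on a single difference between replicates in either group, so it cannot tell whether the numbers pair the samples. For Tgfbr3, the log2 fold change stayed between 0.76 and 1.05 over 21 alternatives, with edgeR or DESeq2 adjusted p of 0.000281 to 0.701; thinning left too few counts to test it. Over all 16 named pairs, 344 refits gave 3 reversals, each in a single batch: Flt3 in HSC and early multipotent progenitors at 0.0692 and Ifngr1 in basophil-mast progenitors at -0.158 in batch 1, and Ifnar2 in basophil-mast progenitors at -0.0913 in batch 2. The count of batch differences was 0, and 1 without the low-count filter. Over all genes without that filter, batch differences ran by type from 36 of 19498 (lymphoid-primed) to 272 of 27272 (neutrophil-granulocyte). With the filter they ran from 0 to 14 by type. Held pairs numbered 139 of 288, 173 at 5 CPM, 104 at 20 CPM and 120 to 148 otherwise. Counts over all genes moved more: lymphoid-primed progenitors 37, from 1 (gate without Dntt and Mpo) to 54 (1 replicate left out), and neutrophil-granulocyte progenitors 9, from 0 (no batch term) to 87 (no low-count filter). In the other types they were 8 (3 to 26), 13 (1 to 65), 4 (0 to 34), 1 (0 to 24), 0 (0 to 14) and 0 (0 to 6) in HSC and early multipotent, monocyte, early B, basophil-mast, erythroid and megakaryocyte cells. Depth limits the lymphoid-primed and megakaryocyte types most, with as few as 31 and 29 cells in a replicate. The causes were not tested.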
